A study of Homo sapiens with 24 samples.

Results

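The prostaglandin genes measured here were 10: PLA2G4A, PTGS1, PTGS2, PTGES, HPGD, PTGER1, PTGER2, PTGER3, PTGER4 and PTGFR. They were chosen by name, through the probe sets that the array's annotation pairs with that symbol alone, and each of the 10 had 1 such probe set among the 21042 tested and the 28536 on the array. RNA of T-47D cells, an established breast cancer line of luminal type that carries the estrogen receptor, was hybridized to 24 Affymetrix Human Gene 1.0 ST arrays. These form 8 groups, each with 3 biological replicates. HRG (heregulin) is a ligand of the ErbB3 and ErbB4 receptors, and P-Rex1, the product of PREX1, is an exchange factor that activates the GTPase Rac. The groups were cells transfected with P-Rex1 RNAi #1, cells transfected with P-Rex1 RNAi #2, cells transfected with a non-target control duplex (NTC) and parental cells without RNAi, each starved of serum before 6 h with either HRG (20 ng/ml) or PBS as the vehicle. The silencing was transient, so it lowered PREX1 RNA without removing the gene, and all groups came from this 1 cell line. The NTC and parental cells are called the controls below.

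Prostaglandins are lipid signals made from arachidonic acid. Phospholipase A2 enzymes release arachidonic acid from membranes, the cyclooxygenases PTGS1 and PTGS2 turn it into prostaglandin H2, and terminal synthases such as PTGES make prostaglandin E2 from that. HPGD inactivates prostaglandin E2. The signal is read by G protein-coupled receptors on the cell surface, of which PTGER2 and PTGER4 raise cAMP, PTGER3 mainly lowers it, and PTGER1 and the prostaglandin F receptor PTGFR act mainly through calcium. In breast epithelium and breast cancer the pathway is best known through PTGS2 and prostaglandin E2.

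Of the 10 genes, HRG changed PTGER2 and PLA2G4A by more than 1.5-fold in the controls, in opposite directions. PTGER2, the EP2 receptor, was 3.30-fold higher with HRG than with vehicle, averaged over the NTC and parental cells on the log2 scale. PLA2G4A, the cytosolic phospholipase A2 that supplies arachidonic acid, was 2.08-fold lower. PTGES and PTGER3 fell by less than 1.5-fold, HPGD did so in NTC cells, and the cyclooxygenases did not pass the test.

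The stretches before the start sites of these 2 genes are shown here because their RNA moved in opposite directions. They are the 250 bases upstream of the start in RefSeq, on GRCh38.p14 and on the + strand of both, at chr14:52314062-52314311 for PTGER2 and chr1:186828699-186828948 for PLA2G4A. Capitals mark matches to a searched motif.
PTGER2: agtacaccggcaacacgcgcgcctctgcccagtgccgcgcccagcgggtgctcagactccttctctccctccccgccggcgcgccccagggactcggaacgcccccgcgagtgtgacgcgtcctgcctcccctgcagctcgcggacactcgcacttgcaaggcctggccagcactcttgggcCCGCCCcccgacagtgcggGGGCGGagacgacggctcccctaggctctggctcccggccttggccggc
PLA2G4A: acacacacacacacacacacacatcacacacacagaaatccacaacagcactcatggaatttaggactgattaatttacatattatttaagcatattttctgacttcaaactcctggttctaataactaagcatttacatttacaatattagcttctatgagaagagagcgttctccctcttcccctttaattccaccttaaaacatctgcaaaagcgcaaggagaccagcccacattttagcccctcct
The PTGER2 stretch was 74% G or C and the PLA2G4A stretch 38.8%, against a median of 58% over the 35116 promoters of the table. Each was searched on both strands for TGANTCA (bound by AP-1), TGACGTC (7 letters of the cAMP response element), CCGGAAG (bound by ETS factors) and GGGCGG (bound by Sp1), which do not overlap in these stretches. PTGER2 held 2 matches to GGGCGG, starting 68 and 49 bases before the start, and PLA2G4A held none. Of all promoters in the table, 42.6% held GGGCGG, 6.57% TGANTCA, 3.12% TGACGTC and 8.52% CCGGAAG. For 9 of the 10 genes the table held 11 promoters in all. None of the 11 held TGANTCA or TGACGTC, and 1 promoter of HPGD held CCGGAAG. A match is a description of the sequence and not a measured binding site.

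The silencing, the cell type and the arrays were checked first. PREX1 stood between 8.45 and 8.60 log2 in the P-Rex1 RNAi #1 arrays with HRG and between 8.57 and 8.83 in the #2 arrays with HRG, against 9.30 to 9.64 in the 6 control arrays with HRG. Without HRG it stood between 8.91 and 9.09 in #1 and between 8.97 and 9.03 in #2, against 10.36 to 10.63 in the 6 controls. Neither duplex overlapped the controls in either condition (exact permutation test, two-sided, p = 0.0238 each, the smallest that 3 against 6 arrays allow). HRG itself lowered PREX1 by 1.01 on the log2 scale in the controls. Of 10 markers of luminal breast epithelium, 10 lay above their array's median on every array, and ESR1 and PGR were called lower with HRG in both controls. Of 6 leukocyte markers 3 lay below the 25% quantile on every array, among them PTPRC. CD68 lay above the median on 21 of 24 arrays and was called higher with HRG in both controls. Of 6 fibroblast markers 1, DCN, lay below the 25% quantile on every array, COL1A1 lay above the median on 24 of 24 arrays and LUM on 19. LUM was called higher with HRG in #1 (1.20), #2 (0.99) and parental cells (0.85) and was just under 1.5-fold in NTC cells (0.58). The 4 endothelial markers lay below the median on every array. The summed log2 level of the 6 leukocyte markers lay between 27.4 and 27.8 in NTC cells with HRG, against 26.7 and 27.2 with vehicle, and between 27.3 and 28.2 in parental cells with HRG, against 26.2 and 27.3 with vehicle. That of the 6 fibroblast markers lay between 34.99 and 35.19 in NTC cells with HRG, against 33.9 and 34.2 with vehicle, and between 34.4 and 35.5 in parental cells with HRG, against 33.7 and 34.7 with vehicle. Averaged over the controls, the leukocyte sum was 27.66 with HRG and 26.84 with vehicle. CD68 alone rose by 0.82 there, and the other leukocyte markers differed by -0.06 to 0.10. The fibroblast sum was 34.98 with HRG and 34.12 with vehicle. LUM alone rose by 0.71 and COL1A1 by 0.18, and the other fibroblast markers differed by -0.09 to 0.08. The part of these markers in the results was not tested. Array medians lay between 6.04 and 6.18. The second principal component held 10.9% of the variance. The 4 arrays farthest from its median were set apart, a number chosen without a cutoff. They were the #1 vehicle array of replicate 2, and of replicate 3 the #2 HRG, NTC HRG and parental vehicle arrays. Leaving them out ended 1 call among the 10 genes, that of the PLA2G4A interaction given below.

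A probe set is called here if it changed by more than 1.5-fold with a Benjamini-Hochberg adjusted p under 0.05 in 1 linear model (limma) of all 24 arrays. In NTC cells HRG called 2 of the 10 genes, 1 higher and 1 lower, where 6.01% of all probe sets tested were called (2.64% higher, 3.37% lower). In parental cells it also called 2, 1 higher and 1 lower, where the share was 5.27% (2.86% higher, 2.41% lower). The median log2 difference of the 10 genes was -0.03 in NTC cells, against 0.03 over all probe sets tested, and -0.11 in parental cells, against -0.03. Without the fold threshold 5 of the 10 passed in NTC cells, where 31.2% of all probe sets did, and 4 passed in parental cells, where 30.8% did. These were PTGER2, PLA2G4A, PTGES and PTGER3 in both, and HPGD in NTC cells. The 6 control arrays with HRG and the 6 with vehicle did not overlap for 4 of the 10 genes, PTGER2, PLA2G4A, PTGES and PTGER3, and for 26% of all probe sets tested. RNA was taken from whole cultures, so fewer cells making a transcript and less of it per cell cannot be told apart.

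**Figure D1:**
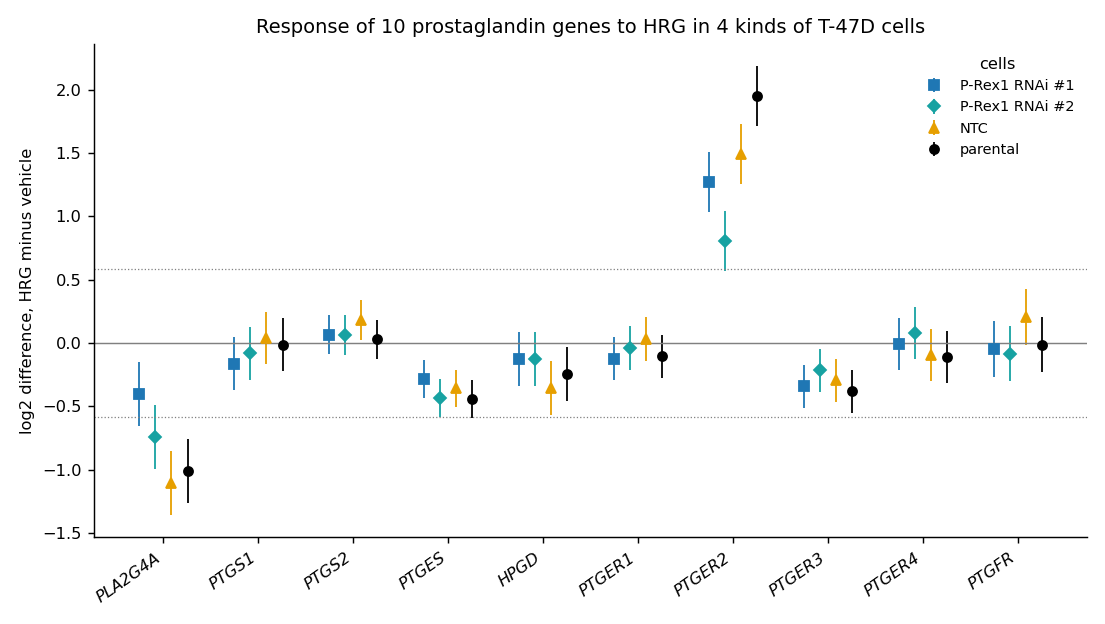
The log2 difference between HRG and vehicle (vertical axis) of the 10 prostaglandin genes (horizontal axis) in P-Rex1 RNAi #1, P-Rex1 RNAi #2, NTC and parental cells, with 95% confidence intervals from limma and 3 arrays per group. Dotted lines mark 1.5-fold in either direction; PTGER2 lies above and PLA2G4A below them in both controls, and the estimates of the other 8 genes lie between them.

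PLA2G4A releases arachidonic acid from membrane phospholipids and so stands at the head of the pathway. With HRG its log2 level was 4.14, 4.44 and 4.26 in NTC cells, against 5.40, 5.39 and 5.36 with vehicle. In parental cells it was 4.16, 4.23 and 4.36 with HRG, against 5.46, 5.30 and 5.03 with vehicle. Every HRG array of the controls lay below every vehicle array. The fall was 1.10 on the log2 scale in NTC cells (SE 0.12, adjusted p = 2.76e-07) and 1.01 in parental cells (SE 0.12, adjusted p = 1.02e-06). Over the controls together, the exact permutation test of 6 against 6 arrays gave p = 0.00216, two-sided, the smallest that it can give. Arrays that do not overlap always give this p, as for 26% of all probe sets tested, so it adds nothing to the separation. The probe set is dim, below the 25% quantile of its array on 5 of 24 arrays, and RMA compresses the fold changes of dim probe sets.

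In P-Rex1 RNAi #1 cells the fall of PLA2G4A was smaller than in the controls, and in #2 cells the difference from the controls did not pass the test. In P-Rex1 RNAi #1 cells its log2 level was 4.70, 4.77 and 4.60 with HRG, against 5.21, 4.98 and 5.09 with vehicle. In P-Rex1 RNAi #2 cells it was 4.59, 4.57 and 4.18 with HRG, against 5.42, 5.22 and 4.93 with vehicle. HRG and vehicle arrays still did not overlap within either silenced group, for which the share of all probe sets was not counted. The difference was -0.40 in #1 cells (adjusted p = 0.0167, under 1.5-fold) and -0.74 in #2 cells (adjusted p = 0.000156, called). The response in #1 cells differed from that in the controls by 0.66 on the log2 scale (SE 0.15, 95% confidence interval 0.35 to 0.96, adjusted p = 0.0333), 1 of the 10 genes called in an interaction that called 0.171% of all probe sets. This call was lost in 11 of the 24 fits that each left out 1 array, in which the difference stayed between 0.60 and 0.71 and the adjusted p lay between 0.0222 and 0.126 over all 24. The 11 left out were parental vehicle 2, parental HRG 2, NTC vehicle 1 and 2, NTC HRG 1 and 3, #1 vehicle 2 and 3, and #1 HRG 1, 2 and 3. It was also lost without the 4 arrays set apart (0.65, adjusted p = 0.0644). In #2 cells the difference from the controls was 0.32 (95% confidence interval 0.01 to 0.63, adjusted p = 0.306). Over both duplexes it was 0.49 (SE 0.12, adjusted p = 0.0204), under 1.5-fold. The responses of #2 and #1 cells differed by -0.34 (#2 minus #1, 95% confidence interval -0.70 to 0.02, adjusted p = 0.688).

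Set out by group, PLA2G4A was lowest in parental cells with HRG (4.25 ± 0.10, SD, n = 3) and followed by NTC with HRG (4.28 ± 0.15), #2 with HRG (4.45 ± 0.23) and #1 with HRG (4.69 ± 0.08). The vehicle groups stood above these, at 5.09 ± 0.12 in #1, 5.19 ± 0.25 in #2, 5.26 ± 0.22 in parental and 5.38 ± 0.02 in NTC cells. Neighbours in this order overlapped, except that #1 with HRG overlapped neither #2 with HRG below it nor #1 with vehicle above it. With HRG, #1 cells stood 0.42 above the controls (adjusted p = 0.0199, under 1.5-fold) and #2 cells 0.18 above them (95% confidence interval -0.04 to 0.40, adjusted p = 0.317). Without HRG, #1 cells differed from the controls by -0.23 (adjusted p = 0.397) and #2 cells by -0.14 (adjusted p = 0.648).

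The genes on either side of PLA2G4A on chromosome 1, by the order of RefSeq genes, are BRINP3 and PTGS2. BRINP3 was called lower with HRG in parental cells (-0.76, adjusted p = 0.000651) and differed by -0.37 in NTC cells (adjusted p = 0.0813). It was dim, averaging 4.09 log2 over the arrays, under the lowest 25% quantile of any array (4.27). PTGS2 is the inducible cyclooxygenase. Its log2 level was 3.82 to 4.13 in the 12 HRG arrays and 3.64 to 4.01 in the 12 vehicle arrays, so the ranges overlapped, and it lay below the 25% quantile of its array on 24 of 24 arrays. The difference between HRG and vehicle was 0.18 in NTC cells (95% confidence interval 0.03 to 0.34, adjusted p = 0.069) and 0.03 in parental cells (95% confidence interval -0.13 to 0.19, adjusted p = 0.827). At this level a change of PTGS2 RNA could be compressed by RMA, and the data say only that none passed the test. PTGS1, the cyclooxygenase that most tissues make at a steady level, lay between 4.61 and 5.10 with HRG and between 4.75 and 5.14 with vehicle. It differed by 0.04 in NTC cells (95% confidence interval -0.17 to 0.25) and by -0.01 in parental cells (95% confidence interval -0.22 to 0.19), and the adjusted p values were 0.81 and 0.947. In #1 and #2 cells PTGS1 differed by -0.16 and -0.08 and PTGS2 by 0.07 and 0.06, none of which passed the test.

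PTGES, the inducible terminal synthase of prostaglandin E2, fell with HRG in all 4 kinds of cells by less than 1.5-fold. In NTC cells its log2 level was 8.68, 8.82 and 8.86 with HRG, against 9.10, 9.18 and 9.16 with vehicle. In parental cells it was 8.74, 8.70 and 8.78 with HRG, against 9.14, 9.25 and 9.15 with vehicle. These arrays did not overlap. In #1 cells the levels were 8.74, 9.08 and 8.94 with HRG, against 9.20, 9.24 and 9.16 with vehicle, and in #2 cells 8.83, 8.68 and 8.76 with HRG, against 9.25, 9.24 and 9.08 with vehicle. The differences were -0.28 in #1 (adjusted p = 0.00516), -0.44 in #2 (adjusted p = 0.000164), -0.36 in NTC (adjusted p = 0.000426) and -0.44 in parental cells (adjusted p = 5.02e-05), each with an SE of 0.07. The response of #1 cells differed from the controls by 0.12 (95% confidence interval -0.06 to 0.30) and that of #2 cells by -0.04 (95% confidence interval -0.22 to 0.15). PTGES lay above the 75% quantile of its array on 24 of 24 arrays.

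HPGD, the dehydrogenase that inactivates prostaglandin E2, was dim, below the 25% quantile on 17 of 24 arrays. In NTC cells it stood at 4.09, 4.23 and 4.14 log2 with HRG, against 4.59, 4.54 and 4.40 with vehicle. In parental cells it stood at 4.24, 4.0 and 4.08 with HRG, against 4.59, 4.29 and 4.16 with vehicle, and these ranges overlapped. The fall passed the adjusted p in NTC cells (-0.35, SE 0.10, adjusted p = 0.01), under 1.5-fold. The difference was -0.24 in parental cells (adjusted p = 0.0806), -0.12 in #1 cells (adjusted p = 0.396) and -0.12 in #2 cells (adjusted p = 0.527). None of the interactions with silencing passed for HPGD. At this level too, RMA would compress a change.

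PTGER2 encodes EP2, a prostaglandin E2 receptor that couples to Gs and raises cAMP. With HRG its log2 level was 6.44, 6.55 and 6.49 in NTC cells, against 5.10, 4.86 and 5.04 with vehicle. In parental cells it was 6.59, 6.40 and 6.91 with HRG, against 4.60, 4.77 and 4.68 with vehicle. Every HRG array of the controls lay more than 1 log2 unit above every vehicle array of the controls. The rise was 1.49 in NTC cells (SE 0.11, adjusted p = 1.18e-09) and 1.95 in parental cells (SE 0.11, adjusted p = 2.63e-11). The exact permutation test over 6 against 6 control arrays gave p = 0.00216, two-sided, the smallest possible. Arrays that do not overlap always give this p, as for 26% of all probe sets tested, so it adds nothing to the separation. Ranked within its own array, PTGER2 ran between the percentiles 24.9 and 60.1 over the 24 arrays, and it lay above the array's median in the 6 control arrays with HRG only.

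In P-Rex1-silenced cells HRG still raised PTGER2, by less than in the controls over both duplexes together. In P-Rex1 RNAi #1 cells its log2 level was 5.94, 5.95 and 6.02 with HRG, against 4.89, 4.43 and 4.78 with vehicle. In P-Rex1 RNAi #2 cells it was 5.57, 5.29 and 5.39 with HRG, against 4.61, 4.73 and 4.50 with vehicle. Over all 24 arrays the lowest HRG array, at 5.29, still lay above the highest vehicle array, at 5.10. How many of all probe sets were separated over all 24 arrays was not counted. The rise was 1.27 in #1 cells (SE 0.11, adjusted p = 2.83e-08) and 0.80 in #2 cells (SE 0.11, adjusted p = 3.17e-05). PTGER2 was the 1 gene of the 10 called for HRG in #1 cells, where 3.67% of all probe sets were called, and in #2 cells it was called with PLA2G4A, where 1.73% were.

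The response of PTGER2 in #2 cells was smaller than in the controls by 0.92 on the log2 scale (-0.92, SE 0.14, 95% confidence interval -1.21 to -0.63, adjusted p = 0.000312). It was 1 of the 10 genes called, where this interaction called 0.779% of all probe sets. In #1 cells the difference was -0.45 (95% confidence interval -0.74 to -0.16, adjusted p = 0.108), which did not pass. Over both duplexes it was -0.68 (SE 0.11, adjusted p = 0.000915), again the 1 gene called, where 0.361% of all probe sets were. The controls here are the mean of NTC and parental cells, whose own PTGER2 responses were 1.49 and 1.95. The silenced cells were not tested against NTC cells alone. The responses of #2 and #1 cells differed by -0.47 (#2 minus #1, 95% confidence interval -0.80 to -0.13, adjusted p = 0.482), and that comparison called 0 of the 10 genes and 0.0618% of all probe sets. The calls for #2 cells and for both duplexes held in each of the 24 fits that left out 1 array.

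By group, PTGER2 was lowest in the vehicle groups, at 4.62 ± 0.11 in #2, 4.68 ± 0.08 in parental, 4.70 ± 0.24 in #1 and 5.0 ± 0.12 in NTC cells (SD, n = 3 each), and within these 4 each overlapped the next. Above them stood #2 with HRG (5.42 ± 0.14), #1 with HRG (5.97 ± 0.05), NTC with HRG (6.49 ± 0.05) and parental with HRG (6.63 ± 0.26). Of these the NTC and parental arrays overlapped and the others did not. With HRG, #2 cells lay 1.15 below the controls (-1.15, SE 0.10, adjusted p = 3.58e-08), in a comparison that called 1 of the 10 genes and 1.01% of all probe sets. With HRG, #1 cells lay 0.59 below them (-0.59, SE 0.10, adjusted p = 0.00108), where 1 of 10 genes and 0.185% of all probe sets were called. This second difference dropped under 1.5-fold, to between -0.58 and -0.52, without parental HRG 3, NTC HRG 2, #1 HRG 1 or #1 HRG 2, each left out alone. Without HRG, no gene of the 10 was called in either silenced group, where 0.0285% (#1) and 0.181% (#2) of all probe sets were. PTGER2 then differed from the controls by -0.14 in #1 cells (adjusted p = 0.59) and by -0.23 in #2 cells (adjusted p = 0.29). NTC cells differed from parental cells by 0.32 without HRG (adjusted p = 0.754) and by -0.14 with HRG (adjusted p = 0.666). These comparisons of NTC with parental cells called none of the 10 genes and 0% of all probe sets. Some marker sums of silenced cells lay apart from those of the controls as well. With HRG the summed log2 level of the 10 luminal markers lay between 109.2 and 109.5 in #1 and between 109.1 and 109.4 in #2 cells, above the 107.7 to 108.5 of the controls. Without HRG it lay between 109.1 and 109.4 in #1 and between 109.2 and 109.5 in #2 cells, overlapping the 108.3 to 109.3 of the controls. By marker, the HRG response over both duplexes differed from the controls by 0.46 for ESR1, 0.39 for PGR and 0.26 for XBP1. For the other luminal markers it differed by -0.15 to 0.12. The summed log2 level of the 6 fibroblast markers in #2 cells lay between 33.6 and 34.2 with HRG, below the 34.4 to 35.5 of the controls. Without HRG it lay between 32.6 and 33.1, below their 33.7 to 34.7. In #1 cells this sum overlapped the controls in both conditions. Their part in the PTGER2 and PLA2G4A differences was not tested.

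**Figure D2:**
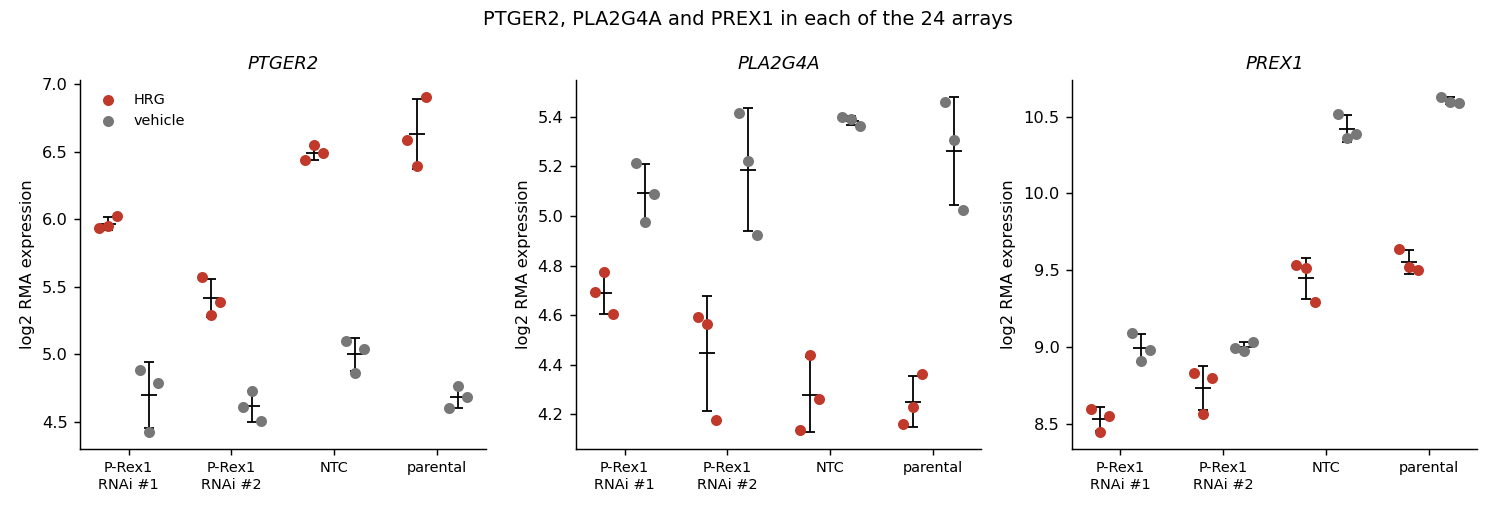
The log2 expression (vertical axis) of PTGER2, PLA2G4A and PREX1 in every array (points), by cells (horizontal axis) and treatment (HRG red, vehicle grey), with the mean and SD of 3 arrays per group. For PTGER2 and PLA2G4A no HRG array overlaps any vehicle array, and PREX1 is lower with each duplex than in the NTC and parental cells of the same treatment. The share of all probe sets without such overlap was counted in the control arrays only, where it was 26%.

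The other receptors changed less. PTGER3, the EP3 receptor, which mainly couples to Gi and lowers cAMP, stood in NTC cells at 8.13, 8.24 and 7.99 log2 with HRG, against 8.45, 8.36 and 8.43 with vehicle. In parental cells it stood at 8.13, 8.12 and 8.03 with HRG, against 8.60, 8.46 and 8.35 with vehicle, so it was lower in every HRG array of the controls. The differences were -0.29 in NTC cells (adjusted p = 0.0073) and -0.38 in parental cells (adjusted p = 0.000894), each with an SE of 0.08 and under 1.5-fold. In #1 cells PTGER3 differed by -0.34 (adjusted p = 0.00308), and in #2 cells by -0.21 (adjusted p = 0.0832). Its response differed from the controls by 0.00 in #1 cells (95% confidence interval -0.21 to 0.20) and by 0.12 in #2 cells (95% confidence interval -0.08 to 0.33).

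PTGER4, the EP4 receptor, which like EP2 raises cAMP, lay between 8.68 and 9.12 with HRG and between 8.72 and 9.13 with vehicle, above the 75% quantile on 24 of 24 arrays. It differed by -0.09 in NTC cells (95% confidence interval -0.30 to 0.11) and by -0.11 in parental cells (95% confidence interval -0.31 to 0.10). A PTGER4 change of the size seen for PTGER2 lies outside these intervals. PTGER1, the EP1 receptor, lay between 6.50 and 6.78 with HRG and between 6.57 and 6.93 with vehicle, and differed by 0.03 in NTC cells and by -0.11 in parental cells (adjusted p = 0.827 and 0.394). PTGFR, the prostaglandin F receptor, lay below the 25% quantile on 24 of 24 arrays, at 3.42 to 3.81 with HRG and 3.44 to 3.80 with vehicle. It differed by 0.20 in NTC cells (adjusted p = 0.162) and by -0.01 in parental cells (adjusted p = 0.953). For PTGER1, PTGER4 and PTGFR no comparison of HRG or of silencing passed the adjusted p.

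**Figure D3:**
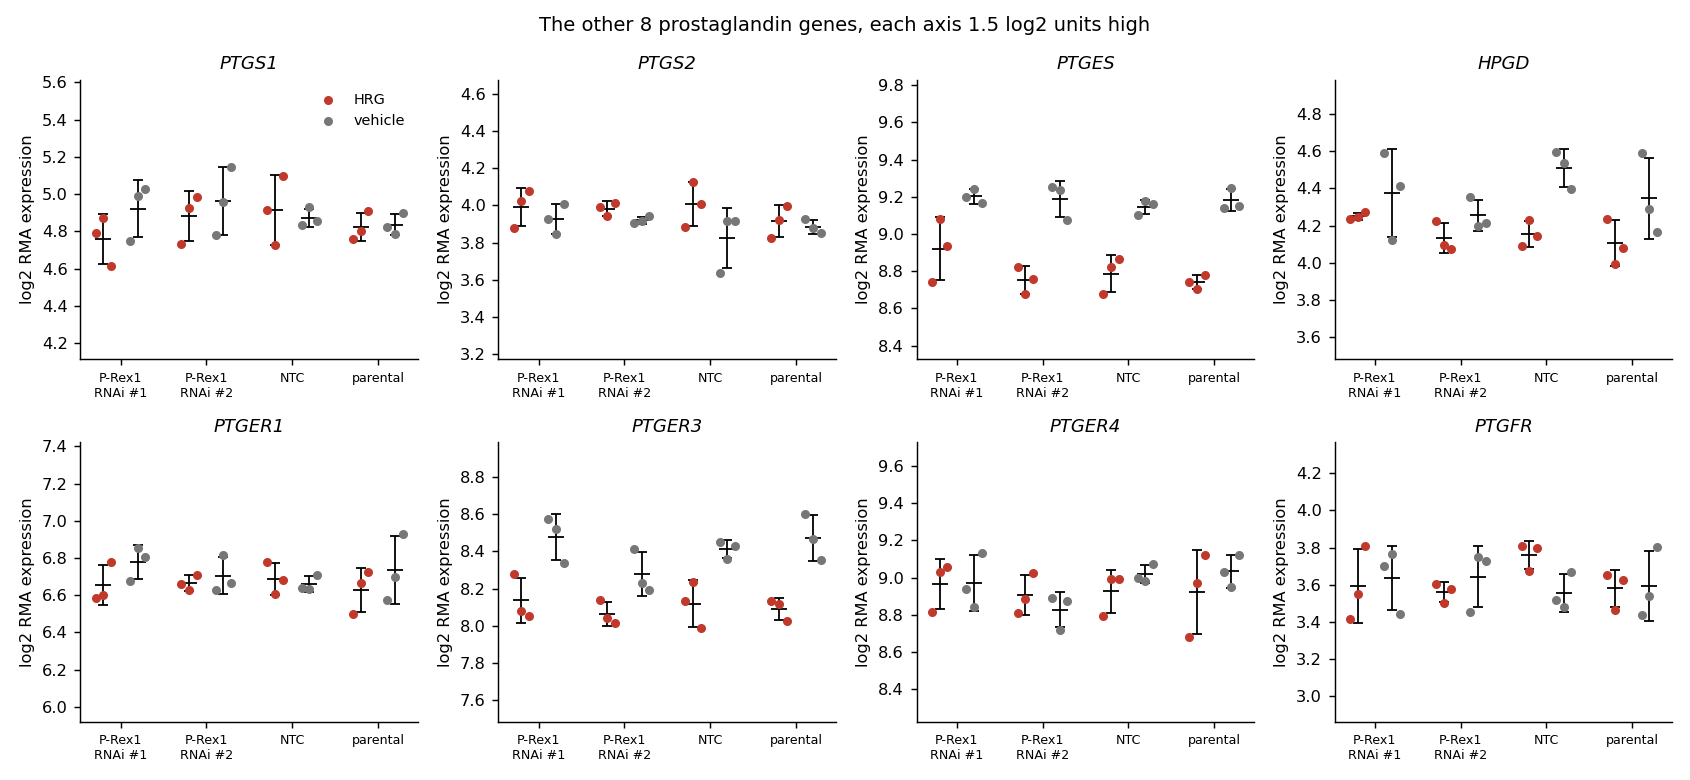
The log2 expression (vertical axis, 1.5 log2 units in every panel) of the other 8 prostaglandin genes in every array (points), by cells (horizontal axis) and treatment (HRG red, vehicle grey), with the mean and SD of 3 arrays per group. PTGES and PTGER3 are lower with HRG in every control array, and the HRG and vehicle arrays of PTGS1, PTGS2, PTGER1, PTGER4 and PTGFR overlap.

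The part of the HRG response kept under silencing was set beside that of other HRG-regulated probe sets. PTGER2 kept 73.8% of its control log2 response in #1 cells and 46.6% in #2 cells. That control response is the mean of NTC (1.49) and untransfected parental cells (1.95), and shares of the smaller NTC response alone were not computed. Over the 448 probe sets called higher with HRG in both controls, the median kept was 83.6% in #1 cells (interquartile range 71.0% to 95.9%) and 54.2% in #2 cells (38.7% to 71.2%), so PTGER2 lay inside both ranges. PLA2G4A kept 38.1% of its fall in #1 cells and 70.1% in #2 cells. Over the 411 probe sets called lower in both controls the median was 69.9% in #1 cells (58.1% to 79.6%) and 58.2% in #2 cells (47.2% to 69.9%). PLA2G4A thus lay below that range in #1 cells and just above it in #2 cells. These probe sets were selected on the same control arrays that form the denominator, so the shares are a description.

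**Figure D4:**
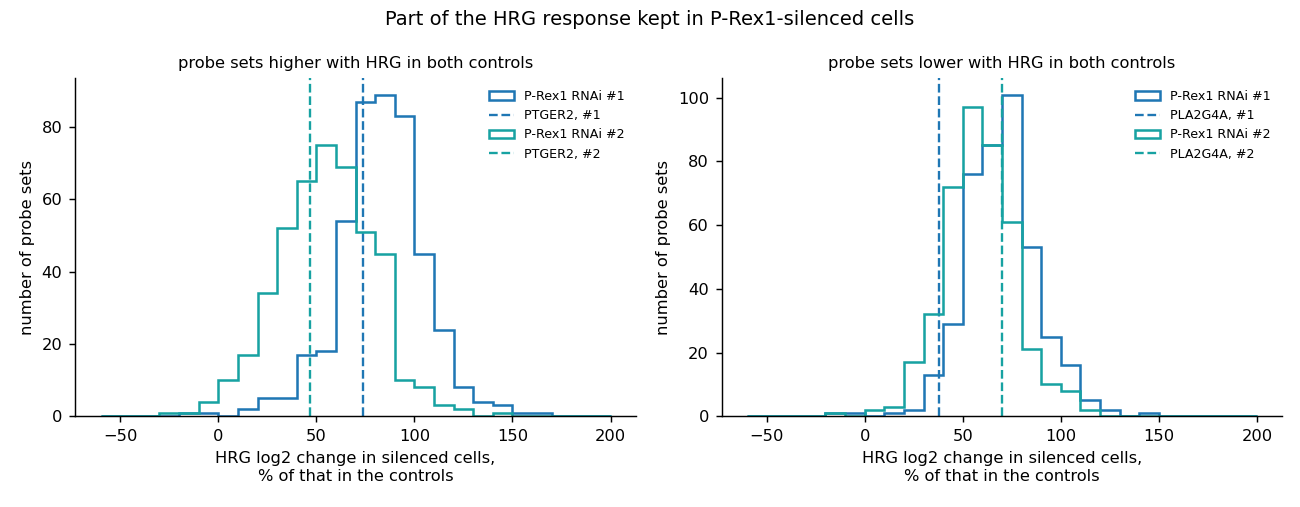
The HRG response in P-Rex1-silenced cells as a percentage of the mean log2 response of NTC and parental cells (horizontal axis), as the number of probe sets per 10 points (vertical axis), for the 448 probe sets higher (left) and the 411 lower (right) with HRG in both controls. Dashed lines mark PTGER2, at 73.8% and 46.6%, and PLA2G4A, at 38.1% and 70.1%, in #1 and #2 cells.

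Other genes of the pathway were counted from lists. Of all probe sets tested, HRG called 6.01% in NTC and 5.27% in parental cells. Of 13 other prostanoid synthases and receptors 12 were measured, and 0 were called with HRG in NTC or parental cells, with median log2 differences of 0.08 and 0.01, against 0.03 and -0.03 over all probe sets tested. They include PTGES2 and PTGES3, the other prostaglandin E2 synthases, and the receptors for prostaglandin D2, prostacyclin and thromboxane. Of 7 genes of prostaglandin transport and breakdown, SLCO2A1, the prostaglandin uptake transporter, was called higher in NTC cells (0.62, adjusted p = 2.95e-05) and was under 1.5-fold in parental cells (0.53, adjusted p = 0.000178). The medians were 0.07 and 0.03. SLCO2A1 is named after its values were seen.

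Of 19 phospholipases A2 and other genes of arachidonate supply 17 were measured. In NTC cells 1 was called higher and 2 lower, where 6.01% of all probe sets were called. In parental cells 1 was called higher and 1 lower, where 5.27% were. The medians were 0.01 in NTC and -0.08 in parental cells, against 0.03 and -0.03 over all probe sets tested. Called in both were MGLL and PLA2G4F. MGLL, the monoacylglycerol lipase that releases arachidonic acid from 2-arachidonoylglycerol, was 0.66 higher in NTC (adjusted p = 6.21e-08) and 0.63 higher in parental cells (adjusted p = 1.17e-07). PLA2G4F, of the same cytosolic phospholipase A2 group as PLA2G4A, differed by -0.63 and -0.62 (adjusted p = 0.000197 and 0.000248). PNPLA8, a calcium-independent phospholipase, was called lower in NTC cells alone (-0.78, against -0.46 in parental cells, where it was under 1.5-fold), and it too is named after its values were seen.

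Of 13 genes of the leukotriene and lipoxygenase branch 10 were measured, and 1, ALOXE3, was called in both controls. ALOXE3 is an epidermis-type lipoxygenase that acts on the products of ALOX12B and makes no leukotrienes. It was 1.32 higher in NTC (adjusted p = 2.43e-10) and 1.36 higher in parental cells (adjusted p = 1.49e-10), and 0.75 higher in #1 and 0.41 higher in #2 cells. Its interaction with both duplexes was called (-0.76, adjusted p = 3e-05). The medians of the branch were 0.00 in NTC and 0.01 in parental cells. Of 20 genes of cAMP signalling and early CREB targets 18 were measured, and 1, the adenylyl cyclase ADCY9, was called in both controls, lower by 0.96 in NTC cells (-0.96, adjusted p = 6.33e-08) and by 0.87 in parental cells (-0.87, adjusted p = 2.6e-07). None of the early CREB targets CREM, NR4A1, NR4A2, NR4A3, PER1 and FOSB was called in either. Without the fold threshold CREM passed in NTC (0.35, adjusted p = 0.00336) and parental cells (0.44, adjusted p = 0.000384), and so did NR4A3 (0.26, adjusted p = 0.0119, and 0.22, adjusted p = 0.0311). NR4A1 (-0.40, adjusted p = 0.00387) and PER1 (-0.28, adjusted p = 0.0235) passed in parental cells only, and NR4A2 and FOSB in neither. Without the fold threshold 7 of the 18 genes of the list passed in NTC cells and 9 in parental cells, where 31.2% and 30.8% of all probe sets did. The medians were 0.03 and -0.05.

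**Figure D5:**
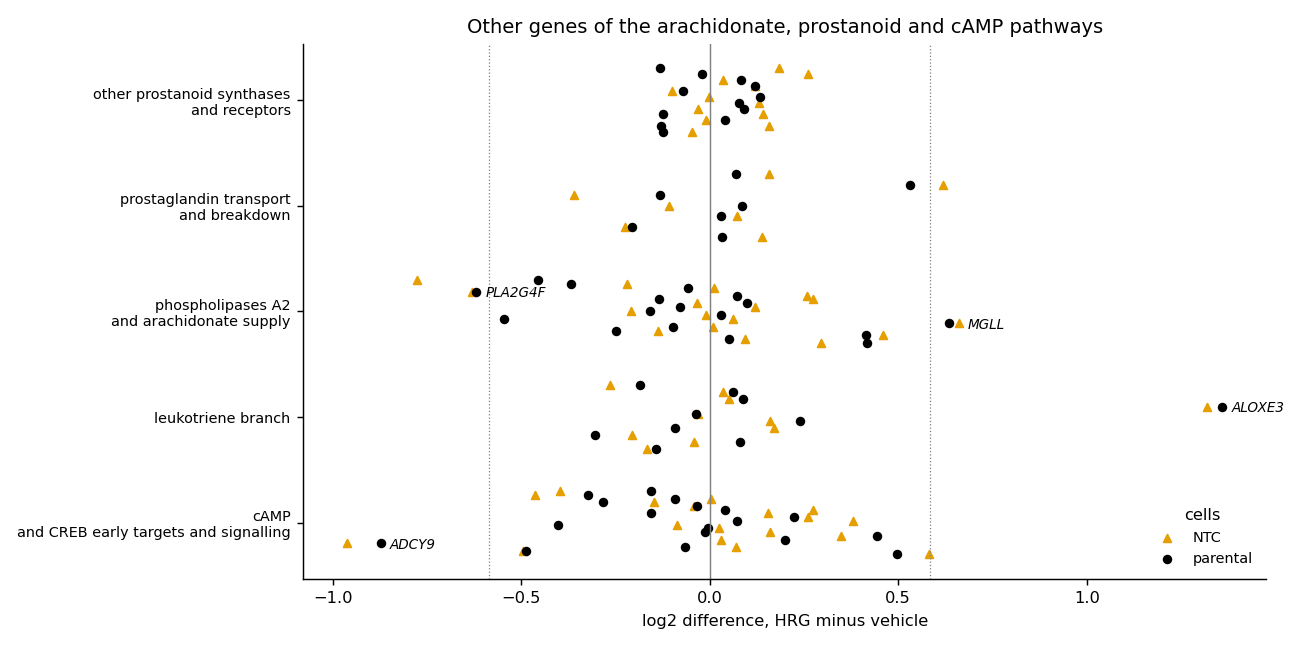
The log2 difference between HRG and vehicle (horizontal axis) of the other genes of the arachidonate, prostanoid and cAMP pathways, by list (vertical axis), in NTC (triangles) and parental cells (circles). Dotted lines mark 1.5-fold, and the 4 genes called in both controls, ALOXE3, MGLL, PLA2G4F and ADCY9, are named.

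The probe sets whose pattern over the 24 arrays was most like that of PTGER2 belonged to CTSV (Pearson r = 0.981), CORO1C (0.980), ITGA2 (0.978), RBMS1 (0.977) and ITGA6 (0.976). ITGA2, an integrin subunit for collagen, was higher with HRG by 1.33 in #1, 0.78 in #2, 1.86 in NTC and 1.97 in parental cells, against 1.27, 0.80, 1.49 and 1.95 for PTGER2 in the same order. Those most like PLA2G4A belonged to TFDP2 (0.961), WDR19 (0.956), PCNA (0.956), PDS5B (0.955) and FAM117B (0.953). PCNA, the sliding clamp of DNA replication, differed by -0.34 in #1, -0.33 in #2, -0.69 in NTC and -0.66 in parental cells. The 24 arrays share 8 group means, so these correlations describe like responses to the same treatments. The gene on either side of PTGER2 on chromosome 14, by RefSeq order, did not rise with it. PTGDR, a prostaglandin D2 receptor, differed by -0.01 in NTC and 0.04 in parental cells, and TXNDC16 differed by -0.40 in NTC cells (adjusted p = 0.00824, under 1.5-fold) and by -0.13 in parental cells.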

How the data were processed

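Expression was measured in T-47D cells on 24 arrays, 3 per group. The authors deposited log2 values made by Robust Multichip Average (RMA) in simpleaffy, which adjusts background, normalizes by quantiles and summarizes probe sets. The version of simpleaffy was not given in the sources used here. RMA compresses differences between dim probe sets. Columns were matched to samples by their names, with 0 left unused.

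In the platform annotation 19292 probe sets have 1 symbol, 1750 have several and 7494 are unnamed here. The 21042 with a symbol entered 1 model with a mean per group (limma 3.58.1, R 4.3.3), adjusted by Benjamini-Hochberg. An interaction is the HRG response in silenced cells minus the mean response of NTC and parental cells. The number of arrays limits the precision. Single values were compared by exact permutation. The labels call the replicates biological and say no more of their origin, so p-values measure only the spread between these samples.

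The genes and lists were chosen with earlier results of these data known. Named were the 10 genes, PREX1, list genes called in both controls and the 5 probe sets most correlated with each gene called in both. List genes AKR1B1, PLA2G4B, PLA2G12A, LTC4S, LTB4R, LTB4R2, SIK1 and AREG had no probe set of their own symbol alone. Alternatives comprised the replicate block, filters, thresholds, variance models, Rank Products and each array left out. The test was tested on simulated data. Promoters came from RefSeq (GRCh38.p14). Plots were drawn in Python 3.11.15 with matplotlib 3.10.9.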

Additional observations from a re-analysis of the deposited data

Results flagged for a closer look

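4 results were singled out because the response to HRG differed between P-Rex1-silenced cells and the NTC and parental controls by a test of the difference itself (limma interaction, log2 scale). PTGER2 rose less in P-Rex1 RNAi #2 cells than in the controls (-0.92, adjusted p = 0.000312), and less over both duplexes (-0.68, adjusted p = 0.000915). The share of its response that PTGER2 kept lay, for each duplex, inside the interquartile range of the 448 probe sets called higher in both controls. PLA2G4A fell less in P-Rex1 RNAi #1 cells (0.66, adjusted p = 0.0333) and less over both duplexes (0.49, adjusted p = 0.0204, under 1.5-fold). The #1 call of PLA2G4A was lost in 11 of the 24 fits that each left out 1 array, and without the 4 arrays set apart. The duplex with the smaller remaining response was #2 for PTGER2 and #1 for PLA2G4A, and for neither gene did the responses of the duplexes differ from each other after adjustment (adjusted p = 0.482 and 0.688, #2 minus #1). PREX1 itself stood 1.52 below the controls in #1 cells (-1.52) and 1.51 below them in #2 cells (-1.51) without HRG. With HRG it stood 0.97 below them in #1 cells (-0.97) and 0.77 below them in #2 cells (-0.77). The part of the PREX1 level in these differences was not tested.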

How the results depend on the processing

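Of 236 values recomputed under other settings, 214 kept their direction and their side of the threshold or stayed within 1.5 times of the count, 7 lost the call, 15 counts moved and 0 reversed. Without the 25% of probe sets with the lowest mean, which drops PLA2G4A from the test, HRG called 1 gene in parental cells, 1 in NTC cells and 1 in P-Rex1 RNAi #2 cells, and the interaction with #1 called 0. With no fold threshold HRG called 4 genes in parental and 5 in NTC cells, where 30.8% and 31.2% of all probe sets passed. It called 4 in #1 cells, the interaction over both duplexes called 2, and #1 against the controls with HRG called 2. Shares over all probe sets are not given for the other counts of this paragraph. At a fold change over 2, HRG called 0 in #2 cells, and 0 were called in the interactions with #1, with #2 and with both duplexes and in #1 against the controls with HRG. Without the 4 arrays set apart, a setting chosen after seeing the data, the interaction with #1 called 0. With the replicate number as a block no call among the 10 genes changed, and the interaction of PLA2G4A with #1 had an adjusted p of 0.0138 (0.66). Nothing in the labels says that a number marks a shared culture or day. Same-numbered HRG and vehicle arrays deviated together in 10 of 12 pairs by r over 0.1, the others being 0.041 (NTC 2) and -0.053 (#1 2). Over all pairs from different groups, 66 of 84 with the same number passed 0.1, and 21 of 168 with different numbers. Mean r was 0.19 and -0.09. Deviations from a group mean sum to 0 within the group, so the values for different numbers are not independent of those for the same number. The main model holds no term for the replicate number. Rank Products called the same genes, PTGER2 and PLA2G4A, in parental and in NTC cells. When each array was left out in turn, the interaction with #1 called 0 to 1 gene and #1 against the controls with HRG called 0 to 1, as given in the text, and all other counts and calls of single genes held. No alternative with other probe sets of a gene could be run, since each gene had 1. The dimness of PTGS2, PTGFR and HPGD limits what can be said of them.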
